A study of Homo sapiens with 24 samples.

Results

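N1-methyladenosine (m1A) peak lists of 2 sets of untreated wild-type HEK293T cells, the preparations named UT and WT, were compared with each other. HEK293T is a human embryonic kidney cell line that carries the SV40 large T antigen. The preparations account for 8 of the 24 libraries of the series (2 input and 2 anti-m1A immunoprecipitated libraries each) and for 4 of its 10 peak lists. Merging the peaks of the 4 lists, wherever they shared at least 1 nt of a transcript, gave 18101 regions on transcripts of 6862 genes. Of these, 727 regions were found in each UT list but not in the WT lists (4.02% of all regions), 287 in each WT list but not in the UT lists (1.59%), and 399 in all 4 (2.20%). They are called UT-only, WT-only and shared regions here, and the choice used only which lists called a region.

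UT cells are labelled as the untreated control of the stress experiment, and WT cells as the wild type set beside a line with the ALKBH3 gene knocked out. Both are wild type in genotype with no treatment, both grew in DMEM with serum, and both were profiled from polyadenylated RNA by the labels' protocols. The other 3 conditions, which served only to see where a region recurred, were ALKBH3 knockout cells (KO), wild-type cells exposed for 30 min to 50 µM hydrogen peroxide (H2O2) and wild-type cells starved for 16 h (Starve), with 2 lists each. Whether replicates were separate cultures is not stated in the labels, and p-values therefore cover only the variation among these libraries, possibly technical.

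In m1A the methyl group sits on the base-pairing face of adenine, where it blocks Watson-Crick pairing and gives the base a positive charge. The mark is long known in tRNA and ribosomal RNA, where dedicated methyltransferases place it, and antibody-based maps of mRNA have placed it mostly near the 5′ end. ALKBH3 is a demethylase that removes it from RNA. An immunoprecipitation peak marks a stretch of transcript that the antibody enriched, which is wider than the modified base itself.

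Every comparison with UT rests on the naming of the peak tables. The descriptions of the UT libraries point to the starved tables, while a separate pair of tables carries the UT names, and these were used. Inside the tables, peak names begin with IP in the UT, H2O2 and Starve lists and with macs2 in the WT and KO lists. A list holds no value for an uncalled region, so a region missing from a list was not called there and is not shown to lack m1A. Of 10 genes used for HEK293 cells, 4 had any peak (NEFL, NEFM and SALL1 in UT lists and VIM in WT replicate 2), and KRT8, KRT18, PAX2, LHX1, EYA1 and CDH2 had 0 in each list. Of 14 markers of other cell types, COL1A1 alone had peaks (2 in UT replicate 1 and 1 in UT replicate 2, against 0 in both WT lists).

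UT lists were longer, and more of their peaks were short and far from the transcript start. UT replicates 1 and 2 held 7871 and 9295 peaks, against 2175 and 3410 in WT replicates 1 and 2. The smallest peak in each list was 100 nt long, and 57.6% and 55.9% of UT peaks had exactly that length, against 27.5% and 17.1% of WT peaks. The summit, the position of highest coverage in a peak, lay within 300 nt of transcript base 1 for 37.6% and 31.5% of UT peaks, against 55.4% and 73.9% of WT peaks. The median pileup, the coverage at the summit as deposited, was 56 and 44 in UT lists, against 67 and 113 in WT lists. The UT lists did not overlap the WT lists in any of these measures, yet 2 lists against 2 cannot give an exact two-sided permutation p below 0.333, which each of them had. Library depth is unknown, because the lists give no read totals.

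Replicates of 1 preparation did not share more regions than lists of different preparations in every pairing. The UT lists shared 1504 regions (19.2% of the first and 16.2% of the second), and 48.3% of these were UT-only while 26.5% were shared by all 4 lists. The WT lists shared 984 regions (45.3% of the first and 28.9% of the second), and 29.2% of these were WT-only while 40.5% were shared by all 4. UT replicate 1 and WT replicate 2 shared 1307 regions, or 16.6% and 38.4% of their regions. WT replicate 2 thus had a larger share in common with UT replicate 1 than with WT replicate 1. These 2 partner lists differ in size, with 7852 and 2174 regions. Of the regions of WT replicate 1, 45.3% were shared with WT replicate 2, against 31.6% and 33.0% with UT replicates 1 and 2. Regions called in 1 list alone made up 72.4% and 76.5% of UT regions, against 42.5% and 37.0% of WT regions.

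**Figure D1:**
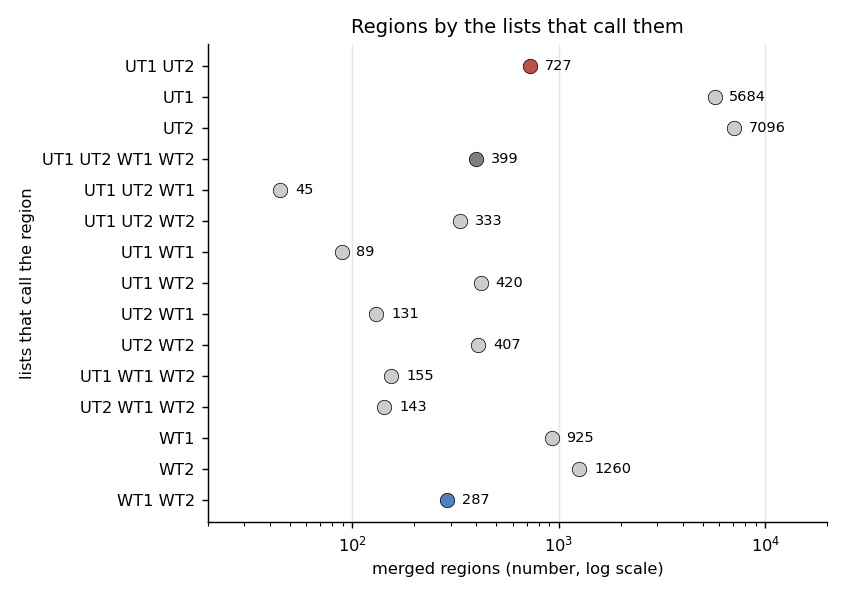
Number of merged regions (x axis, log scale) for each combination of lists that call a region (y axis). The marked points are the 727 UT-only, 399 shared and 287 WT-only regions, and the grey points show the 5684 and 7096 regions of 1 UT list alone above the 925 and 1260 of 1 WT list alone.

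The order of the counts depended on list length. When each list was cut to its 2175 peaks of highest deposited −log10 q-value, 98 regions were UT-only, 409 WT-only and 206 shared. Among peaks with a deposited fold enrichment of 4 or more, the authors' own value over local background, the counts were 286, 196 and 148. With 1 transcript per gene they were 442, 195 and 272. The UT-only class was therefore larger than the WT-only class in the lists as deposited, and smaller in lists of equal length.

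In the lists as deposited, UT-only regions were spread along the transcripts, whereas WT-only and shared regions lay mostly near the 5′ end. The median summit stood 373.5 nt from transcript base 1 in UT-only regions, 154 nt in WT-only regions and 140 nt in shared regions, against 1059 nt in the 14965 regions of 1 list alone. A summit within 300 nt was found in 45.7% of UT-only regions (95% Wilson interval 42.1 to 49.3%), in 78.0% of WT-only regions (72.9 to 82.4%) and in 87.7% of shared regions (84.1 to 90.6%). In regions of 1 list alone the share was 26.4%. Without WT replicate 2 the order of UT-only and WT-only regions turned, with 55.7% and 39.3% within 300 nt. Counted by gene, 50.6% of the 453 genes with a UT-only region had such a summit, against 76.5% of the 204 genes with a WT-only region and 87.9% of the 272 genes with a shared region. These intervals cover counting error only, and transcripts of 1 gene repeat a signal.

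Few summits of any class lay at the very start of a transcript. Within the first 60 nt there were 2 UT-only regions, 2 WT-only regions and 0 of 399 shared regions, which allows a share of up to 0.954% (upper Wilson bound). Within 100 nt the shares of the classes were close, at 8.94% of UT-only, 7.32% of WT-only and 9.02% of shared regions. The classes parted between 100 and 300 nt and again far downstream. Beyond 1000 nt lay 33.1% of UT-only regions (29.8 to 36.7%), 7.67% of WT-only regions (5.12 to 11.3%) and 2.01% of shared regions (1.02 to 3.91%). With lists of equal length, 52.0% of UT-only, 83.1% of WT-only and 85.0% of shared regions had a summit within 300 nt.

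**Figure D2:**
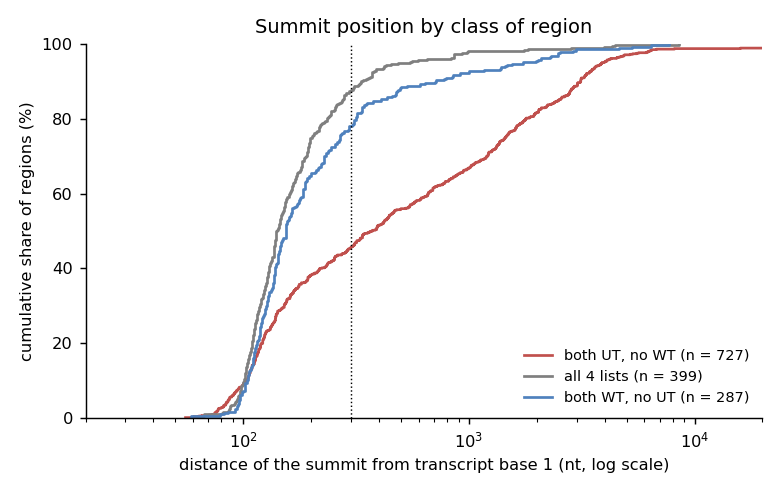
Cumulative share of regions (y axis) by the distance of their summit from transcript base 1 (x axis, nt, log scale to 20000 nt), with a dotted line at 300 nt. The UT-only curve reaches 45.7% at that line, below the WT-only curve at 78.0% and the curve of shared regions at 87.7%. A further 8 UT-only regions lie beyond the axis.

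UT-only peaks were also shorter than WT-only and shared peaks, as UT peaks were in general. Their median length was 100 nt in both UT lists, the smallest length in the lists, and 53.9% and 52.8% of them had exactly that length. Among all UT peaks the shares were 57.6% and 55.9%, and in regions of 1 UT list alone 64.0% and 60.6%. The short length was therefore not particular to UT-only regions. WT-only peaks had a median of 125 nt in WT replicate 1 and 142 nt in WT replicate 2, with 13.2% and 10.5% at the smallest length. Shared regions had medians of 123 and 126 nt in UT lists, against 138 and 162 nt in WT lists. The short UT-only peaks were seen at either position. With a summit within 300 nt their median over both lists was 109 nt, against 141 nt in WT-only and 142.5 nt in shared regions, and beyond 300 nt it was 105.5 nt, against 151 and 145.5 nt.

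**Figure D3:**
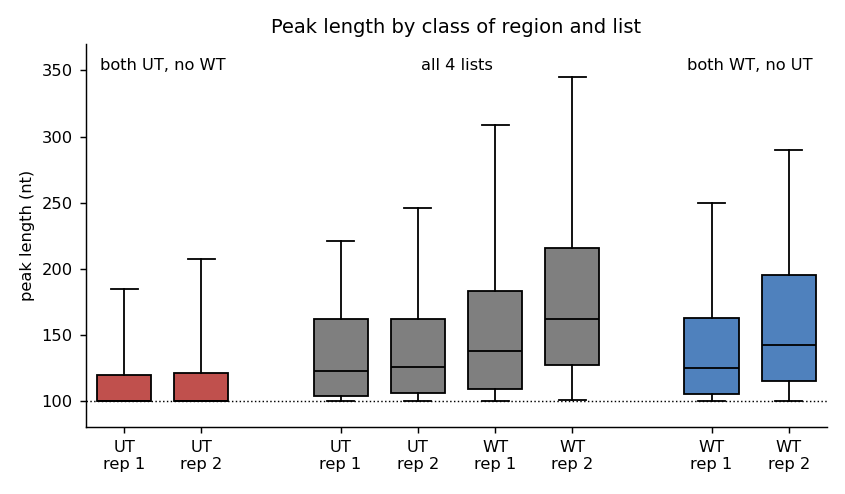
Peak length in nt (y axis) by class of region and by list (x axis). Boxes run between the quartiles with a line at the median, whiskers run between the 5th and 95th percentiles, and the dotted line marks 100 nt. The boxes of UT-only regions sit on that line, and in shared regions the UT medians of 123 and 126 nt lie below the WT medians of 138 and 162 nt.

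Within each list, UT-only and WT-only regions ranked lower in pileup than shared regions. Since pileup is not comparable between lists, each peak was given its percentile within its list. The median percentile of UT-only regions was 52.6 in UT replicate 1 and 50.1 in UT replicate 2. WT-only regions stood at a median of 68.0 in WT replicate 1 and 65.5 in WT replicate 2. Shared regions stood at 91.4 and 94.6 in UT lists, against 73.1 and 74.6 in WT lists. A list with more weak peaks gives the same region a higher percentile, so percentiles cannot be compared between UT and WT lists.

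The 10 genes whose UT-only region ranked highest in pileup mostly had the summit near the 5′ end and no peak in a WT list. The highest was NR_036625, a noncoding transcript that the gene table does not name, with pileups of 692 and 463 in UT replicates 1 and 2 at nt 209 to 336. A similar noncoding entry, NR_036624, had 379 and 222 at nt 206 to 333. LSM4, a subunit of the ring that binds U6 small nuclear RNA, had 370 and 254 with summits at nt 159 and 153. Both WT lists called 0 peaks on any transcript of LSM4.

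RBBP4, a histone-binding subunit of several chromatin complexes, had pileups of 358 and 254 in UT replicates 1 and 2, with a peak of 100 nt in each list. TCP1, a subunit of the cytosolic chaperonin, had 323 and 217. OAZ1, the antizyme that targets ornithine decarboxylase for breakdown, had 290 and 215 with summits at nt 87 and 76. INSIG1, which holds the SREBP escort protein in the endoplasmic reticulum, had 294 and 222. None of these 4 genes had a peak in a WT list. SMIM13 (347 and 255) and GADD45GIP1 (322 and 233) likewise had 0 WT peaks.

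CDKN2A, which encodes cell cycle inhibitors, was the exception among the 10: its UT-only region at nt 294 to 398 had pileups of 281 and 229 in UT replicates 1 and 2, while each WT list held 1 peak elsewhere on its transcripts. Of these 10 regions, 9 were called in at least 1 KO list and 10 in at least 3 of the 6 lists of other conditions. They are not typical of their class, of which 19.5% was called in at least 1 KO list and 57.2% in at least 1 of the 6 lists.

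The 10 highest ranking WT-only regions included those of FTH1, EIF1, PFN1 and EEF1G, none of which had a peak in a UT list. FTH1, the ferritin heavy chain that stores iron, had pileups of 4850 and 13506 in WT replicates 1 and 2 at nt 52 to 301, with the summit at nt 207 in both. Both UT lists called 0 peaks on FTH1, and so did the H2O2 and Starve lists in this region, while both KO lists called it. EIF1, a factor in start codon selection, had 2491 and 4177, with 0 UT peaks and calls in 5 of the 6 other lists.

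PFN1, the actin-binding profilin, had pileups of 2066 and 2632 in WT replicates 1 and 2 at nt 573 to 683, called in both KO lists and in no H2O2 or Starve list. YBX3, a cold shock domain protein, had 2027 and 2922 and was called in all 6 other lists. EEF1G, a subunit of elongation factor 1, had 3063 and 2229, and TLE5, a transcriptional corepressor, had 808 and 1483. Neither EEF1G nor TLE5 was called in any of the 6 other lists at this region. UBE2S, an E2 enzyme of the anaphase-promoting complex, had 1235 and 3376, and ALYREF, an mRNA export adaptor, had 723 and 2422. PFN1, YBX3, EEF1G, UBE2S, TLE5 and ALYREF had 0 peaks in either UT list.

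The highest WT-only region of all lay on 28S ribosomal RNA (RNA28SN5) at nt 2920 to 3040, with pileups of 9182 and 21107 and its summit at nt 2980 in both WT lists. It is a different site from the shared 28S region described next.

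Shared regions held the strongest signals of each list. The 28S ribosomal RNA region, at nt 663 to 1711, had pileups of 2014054 and 1422523 in UT lists, against 968016 and 2469564 in WT lists, so the preparations overlapped. This RNA of the large ribosomal subunit carries a long known m1A. The next regions lay on transcripts that the gene table does not name. NM_001190470 had pileups of 77039 and 51979 in UT lists, against 571990 and 84022 in WT lists. NM_001190702 had 38196 and 27153 in UT lists, against 327662 and 62965 in WT lists. NM_001190452, also without a symbol, had 2818 and 1714 in UT lists, against 12204 and 3556 in WT lists. On all 3 transcripts WT replicate 1 stood apart from the other 3 lists.

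Among shared regions of named mRNAs, those of ATP6V0C, ATP5F1D, GNAS, CHCHD10 and ANP32B ranked highest. ATP6V0C, the proteolipid subunit of the vacuolar proton pump, had pileups of 4268 and 2998 in UT lists, against 4452 and 9013 in WT lists, with summits between nt 182 and 184 in all 4. ATP5F1D, a subunit of mitochondrial ATP synthase, had 3340 and 2503 in UT lists, against 4001 and 6753 in WT lists. GNAS, the stimulatory G protein alpha subunit, had 3778 and 2286 in UT lists, against 3802 and 6461 in WT lists. CHCHD10, a protein of the mitochondrial intermembrane space, had 3162 and 2004 in UT lists, against 2596 and 4581 in WT lists. ANP32B, an acidic histone chaperone, had 2084 and 1341 in UT lists, against 2533 and 4251 in WT lists. Each of these 5 regions was called in all 6 other lists. The lists differ in scale, with median pileups over the 382 regions of 140 and 128 in UT lists, against 118 and 219 in WT lists, so these values give no direction between the preparations.

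Relative pileup in shared regions followed a similar order in all 4 lists. After transcripts of 1 gene with identical pileups were counted once, 382 shared regions remained. Across them, log2 pileup correlated with Pearson's r = 0.894 between the UT lists and 0.896 between the WT lists, against 0.846 to 0.886 between a UT and a WT list. These values describe regions within shared libraries and carry no test. With each list centred on its median over these regions, both UT lists lay above both WT lists in 64 regions (16.8%) and below both in 106 (27.7%). The median log2 difference, UT minus WT, was −0.18 with centring and −0.45 on the pileup as deposited.

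Of the 382 shared regions, 4 (1.05%) differed in relative pileup at an adjusted p under 0.05 (limma with Benjamini-Hochberg adjustment, 2 lists a group), 1 higher (0.262%) and 3 lower (0.785%) in UT. The higher one was CSNK1E, casein kinase 1 epsilon, with pileups of 1559 and 1163 in UT lists, against 216 and 574 in WT lists, a log2 difference of 2.20 (SE 0.49, limma adjusted p = 0.00146). Its summits also lay apart, at nt 97 and 100 in UT lists, against nt 172 and 178 in WT lists. NM_001190706 had 10338 and 7256 in UT lists, against 211406 and 27684 in WT lists, a log2 difference of −2.88 (SE 0.59, limma adjusted p = 0.000525). The SEs and p-values of the pileup fit rest on the variance of regions of similar pileup. They do not measure how far a region's own lists lie apart, which is wide in WT for NM_001190706.

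NM_001190472 had pileups of 92 and 53 in UT lists, against 1005 and 241 in WT lists, a log2 difference of −2.55 (limma adjusted p = 0.00248). MDK, the heparin-binding growth factor midkine, had 29 and 28 in UT lists, against 62 and 225 in WT lists, a log2 difference of −1.79 (limma adjusted p = 0.0414). Its UT pileups lay below the first quartiles of all peaks in UT replicates 1 and 2 (36 and 29). Without limma's variance trend MDK did not pass (limma adjusted p = 0.148). On both unnamed transcripts WT replicate 1 was the highest list, and without it the log2 difference of NM_001190706 was −0.94 (limma adjusted p = 0.624). No region passed without WT replicate 1, with quantile normalization, on pileup as deposited, with the replicate number as a block, or among peaks with a fold enrichment of 4 or more (14 to 59 regions at an unadjusted p under 0.05 in limma).

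**Figure D4:**
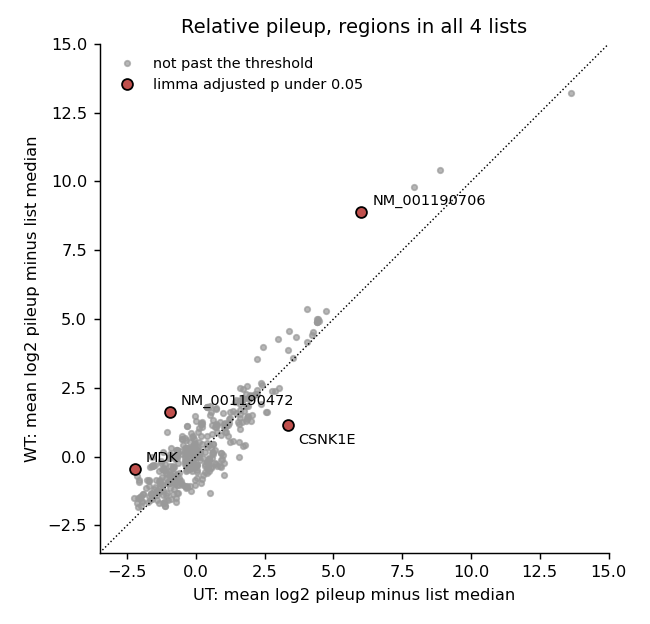
Mean log2 pileup minus the list median in UT (x axis) and WT (y axis) for the 382 shared regions, with a dotted line of equality. CSNK1E lies below the line with a difference of 2.20, and NM_001190706, NM_001190472 and MDK lie above it with differences of −2.88, −2.55 and −1.79.

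Shared regions were more often shorter than longer in UT, and over all of them the median shift was larger at the 3′ than at the 5′ edge. The UT mean length was below the WT mean in 285 of the 382 regions and above it in 95, with a median difference, UT minus WT, of −19.5 nt. The 2 lists of 1 preparation differed by a median of 24 nt in UT and 32 nt in WT, regardless of sign, against 35 nt between a UT list and a WT list. With sign, the median of WT replicate 1 minus WT replicate 2 was −17 nt, and that of UT replicate 1 minus UT replicate 2 was 0 nt. The median log2 length difference, UT minus WT, was −0.20 with all 4 lists. It was −0.09 without WT replicate 2 and −0.24 without WT replicate 1. Both UT lists were shorter than both WT lists in 154 regions (40.3%) and longer in 17 (4.45%). The 3′ edge lay further upstream in UT, with a median difference, UT minus WT, of −15.25 nt, whereas the 5′ edge differed by a median of 2.25 nt. Regardless of sign, the 3′ edge differed by a median of 24 nt between the lists of either preparation, against 32 nt between a UT list and a WT list. Summits lay within 25 nt of each other in 291 regions (76.2%) and over 100 nt apart in 12.

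In 9 of the 382 regions (2.36%), of 6 transcripts or genes, the length differed at an adjusted p under 0.05, and all 9 were shorter in UT (limma on log2 length, Benjamini-Hochberg adjustment). The region on 28S ribosomal RNA was 553 and 554 nt long in UT lists, against 1024 and 1049 nt in WT lists, a log2 difference of −0.90 (SE 0.06, limma adjusted p = 0.00882). It ran from nt 990 and 991 to nt 1542 and 1544 in UT lists, against nt 688 and 663 to nt 1711 in both WT lists. Its summit stood at nt 1266 and 1262 in UT lists, against nt 1383 and 1376 in WT lists.

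GNAS gave 4 of the 9, as transcripts that repeat 1 signal. On NM_001077489 the region was 131 and 123 nt long in UT lists, against 383 and 405 nt in WT lists, a log2 difference of −1.63 (SE 0.18, limma adjusted p = 0.0261). It began at nt 42 and 49 in UT lists, against nt 38 in both WT lists, and ended at nt 172 and 171 in UT lists, against nt 420 and 442 in WT lists. The summits, at nt 132 and 112 in UT lists and nt 124 in both WT lists, did not part.

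PTMS, the acidic nuclear protein parathymosin, ended at nt 127 and 133 in UT lists, against nt 295 and 345 in WT lists, with lengths of 102 and 100 nt in UT lists and 292 and 342 nt in WT lists (limma adjusted p = 0.0464). On NM_003377, a transcript of the VEGF family growth factor VEGFB, the region was 111 and 119 nt long in UT lists, against 311 and 316 nt in WT lists (limma adjusted p = 0.0467). Its 5′ edge lay at nt 14 and 4 in UT lists, against nt 12 and 8 in WT lists, and its 3′ edge at nt 124 and 122 in UT lists, against nt 322 and 323 in WT lists. In PTMS and on this VEGFB transcript the 3′ edges of the preparations lay far apart. With the replicate number as a block neither passed (limma adjusted p = 0.0580 for PTMS and 0.0751 for VEGFB). Another VEGFB transcript, NM_001243733, did not pass in the main fit (limma adjusted p = 0.422). Its region was 109 and 234 nt long in UT lists, against 312 and 316 nt in WT lists. The 3′ edge there lay at nt 124 and 244 in UT lists, against nt 322 and 323 in WT lists.

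NM_001190702 was 200 and 244 nt long in UT lists, against 1128 and 701 nt in WT lists (limma adjusted p = 0.0400). It began at nt 886 and 842 in UT lists, against nt 160 and 587 in WT lists, and ended at nt 1085 in both UT lists, against nt 1287 in both WT lists, so it differed at both edges, as did 28S ribosomal RNA. No region passed when limma's variance trend was left out or when either UT list was left out (50 to 53 regions at an unadjusted p under 0.05 in limma), and 1 passed when either WT list was left out. What part pileup has in peak length was not tested.

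At the level of genes, 404 of the 6862 genes (5.89%) had a peak somewhere in all 4 lists. Of these, 272 had a shared region and 132 had peaks that did not all overlap on 1 transcript. Another 980 genes (14.3%) had peaks in both UT lists and no WT list, and 109 (1.59%) in both WT lists and no UT list. Of the 453 genes with a UT-only region, 336 (4.90% of all 6862 genes) had no WT peak anywhere and 117 (1.71%) had one elsewhere. Of the 204 genes with a WT-only region, 92 (1.34%) had no UT peak anywhere and 112 (1.63%) had one elsewhere. Many genes therefore repeated across preparations at different sites or isoforms. UT lists held peaks on 3800 and 4347 genes, against 1300 and 2076 in WT lists, and how far this sets the counts was not tested.

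Of the 6862 genes, 8 (0.117%) held both a UT-only and a WT-only region, 7 of them on 1 transcript. This stands beside 6.60% of genes with a UT-only region and 2.97% with a WT-only region, and whether 8 is few was not tested. In LAMP1, a lysosomal membrane glycoprotein, the UT-only region at nt 856 to 1022 had pileups of 132 and 94 in UT lists, and the WT-only region at nt 141 to 250 had 291 and 438 in WT lists. In IRAK1, a kinase of interleukin 1 receptor signalling, the UT-only region at nt 1306 to 1406 had 64 and 57 in UT lists, and the WT-only region at nt 48 to 179 had 346 and 653 in WT lists. UBXN6 (30 and 19 in UT lists, 303 and 732 in WT lists) and COPA, a coat protein of Golgi vesicles (46 and 50 in UT lists, 58 and 67 in WT lists), had the same layout, with the WT-only region upstream by 1015 and 2499 nt.

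CHKA, a choline kinase, had its WT-only region 174 nt upstream of its UT-only region. The reverse order was seen in KCTD12, with the UT-only region at nt 63 to 268 and the WT-only region at nt 1255 to 1475, and in PAWR, with the UT-only region at nt 4 to 138 and the WT-only region at nt 368 to 620. In SZRD1 the regions lay on different transcripts. The WT-only region was thus the one nearer the 5′ end in 5 of the 7 genes with both on 1 transcript.

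The classes were next read by gene group, as counts beside the shares of all genes with a peak (6.60% with a UT-only region, 2.97% with a WT-only region and 3.96% with a shared region). Of 46 translation factors with a peak, 2 had a UT-only region (4.35%), 5 a WT-only region (10.9%) and 2 a shared region (4.35%). The WT-only members included EIF1 and EEF1G, given above, EIF3B, a scaffold of initiation factor 3 (pileups of 381 and 532 in WT lists), and PABPC4, a cytoplasmic poly(A)-binding protein (183 and 497). The UT-only members were EIF5, which triggers GTP hydrolysis at the start codon (67 and 47 in UT lists), and EIF4G1, the scaffold of the cap-binding complex (41 and 112). EIF5A, which relieves ribosome stalling, was shared, with 2754 and 1741 in UT lists, against 1416 and 5782 in WT lists.

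Of 46 oxidative phosphorylation genes, 3 had a UT-only region (6.52%), 0 a WT-only region and 5 a shared region (10.9%). The UT-only members were NDUFB8 of complex I (107 and 158 in UT lists), ATP5IF1, the inhibitor of ATP synthase (96 and 111), and UQCRC1 of complex III (38 and 52). The shared members included COX6A1 of cytochrome oxidase, with 608 and 364 in UT lists, against 316 and 1070 in WT lists. Of 33 chaperone genes, 3 had a UT-only region (9.09%) and none a WT-only or shared region: TCP1, HSPA5, the chaperone of the endoplasmic reticulum (63 and 55 in UT lists, near nt 1636 and 1622), and HSPBP1, an HSP70 cofactor (63 and 44).

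Of 48 splicing factor genes, 4 had a UT-only region (8.33%), 1 a WT-only region (2.08%) and 5 a shared region (10.4%). SRSF1, a serine and arginine rich splicing regulator, was shared, with pileups of 467 and 290 in UT lists, against 470 and 942 in WT lists. The UT-only regions of SRSF4, HNRNPH1 and SF3A1 had their summits beyond 1000 nt, and that of HNRNPD, the highest ranking, at nt 440 and 342. The WT-only region of SF3A3, with 61 and 77 in WT lists, had its summits at nt 191 and 201. Of 34 RNA helicase genes, 3 had a UT-only, 0 a WT-only and 3 a shared region. Of 65 genes listed by symbol prefix under cell division (such as CDK and CDC), the counts were 2, 1 and 4. The UT-only members, CDC42EP4 and CDC42BPB, and the WT-only member, CDK2AP1, entered by prefix alone and are not shown to act in cell division. E2F1, a transcription factor of S phase entry, was shared, with 205 and 139 in UT lists, against 118 and 274 in WT lists. CCNE1, its target cyclin E1, was shared with 93 and 65 in UT lists, against 53 and 95 in WT lists.

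Of 31 cytosolic ribosomal protein genes 3 had a UT-only, 1 a WT-only and 1 a shared region, and of 32 mitochondrial ribosomal protein genes 2, 1 and 1. Of 112 zinc finger genes 1 had a UT-only, 3 a WT-only and 4 a shared region, and of 105 solute carriers 4 had each. Of 14 immediate early and stress genes with a peak, 1 had a region of a class, NFE2L2, the regulator of the antioxidant response, which was WT-only with pileups of 73 and 162 in WT lists. Of 9 RNA methylation genes with a peak, 2 had a WT-only region, the m6A demethylase ALKBH5 (147 and 234) and the m6A reader YTHDF1 (78 and 159), and none a UT-only or shared one. With 5 or fewer genes of a list in any class, these counts are descriptions.

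Recurrence in the 6 lists of other conditions, which the choice of regions did not use, was lowest for UT-only regions in the lists as deposited. A peak in at least 1 of the 6 lists overlapped 57.2% of UT-only regions (53.6 to 60.8%), 85.7% of WT-only regions (81.2 to 89.3%) and 98.0% of shared regions (96.1 to 99.0%), against 29.6% of regions of 1 list alone. Lists of equal length gave 84.7% for UT-only and 89.2% for WT-only regions, so most of that gap was not seen there. Without WT replicate 2 the order turned, with 68.9% of UT-only and 44.7% of WT-only regions called in another condition. All 6 lists called 3 UT-only, 10 WT-only and 89 shared regions.

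By condition, and in the lists as deposited, UT-only regions recurred most in Starve lists and WT-only regions most in KO lists. At least 1 KO list called 19.5% of UT-only regions (16.8 to 22.6%), against 63.1% of WT-only regions (57.3 to 68.4%). At least 1 H2O2 list called 31.9% of UT-only regions (28.6 to 35.4%), against 52.6% of WT-only regions (46.8 to 58.3%). At least 1 Starve list called 38.8% of UT-only regions (35.3 to 42.4%), against 57.5% of WT-only regions (51.7 to 63.1%). Shared regions gave 73.4% in KO, 82.2% in H2O2 and 86.7% in Starve lists. The order for WT-only regions did not hold throughout: Starve lists came first with a fold enrichment of 4 or more (71.9%, against 67.9% in KO lists), without WT replicate 1 (48.9%, against 40.4%) and without WT replicate 2 (26.7%, against 22.6%).

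The lists of other conditions differed in length, with 3447 and 3524 peaks in KO, 7459 and 3903 in H2O2 and 11362 and 8791 in Starve. Lists of similar length can be set side by side. H2O2 replicate 2 called 14.2% of UT-only regions, and KO replicates 1 and 2 called 14.0% and 15.7%. The same 3 lists called 33.4%, 55.1% and 54.0% of WT-only regions. With UT and WT lists of equal length, UT-only regions recurred in KO, H2O2 and Starve lists at 34.7%, 70.4% and 72.4%, and WT-only regions at 67.5%, 54.5% and 65.0%. UT-only regions were then called more often than WT-only regions in H2O2 and Starve lists and less often in KO lists. In that setting the direction of the contrast between UT-only and WT-only regions followed the 2 kinds of peak name. It did not in the lists as deposited, where WT-only regions recurred more in each list. Nor did the shares of WT-only regions alone split by name when 1 list of a condition was enough, with Starve lists close to KO lists. List by list, and as deposited, those shares did split by name. KO lists called 55.1% and 54.0% of WT-only regions, against 30.0% and 33.4% in H2O2 lists and 39.4% and 34.1% in Starve lists. What the naming stands for was not tested.

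**Figure D5:**
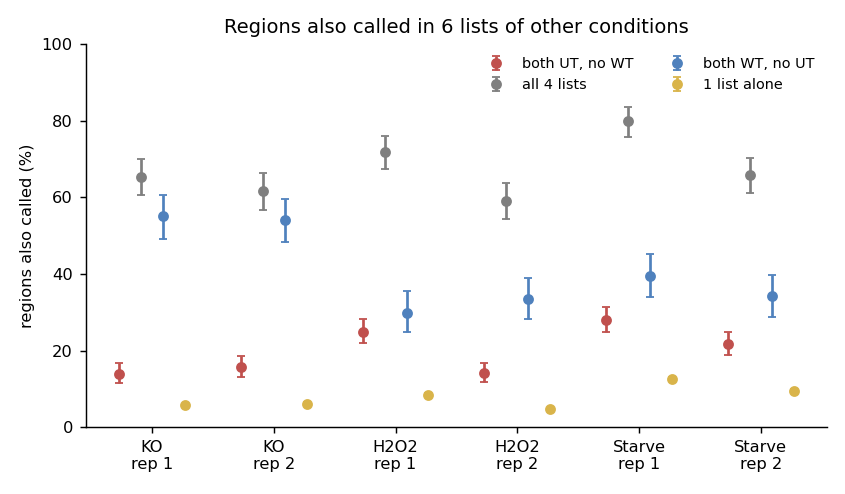
Share of regions (y axis, %) that overlap a peak in each of 6 lists of other conditions (x axis). Points are shares and bars are 95% Wilson intervals. UT-only regions lie below WT-only regions in each list, and the gap is widest in the KO lists, at 14.0% and 15.7% against 55.1% and 54.0%.

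Recurrence of UT-only regions went with position. Those with a summit within 300 nt (332 regions) were called in at least 1 KO list in 33.4% of cases, against 7.85% of those beyond 300 nt (395 regions). The same split gave 41.3% against 24.1% in H2O2 lists, and 51.5% against 28.1% in Starve lists. In WT-only regions the split made little difference, with 63.8% within and 60.3% beyond 300 nt in KO lists. A UT-only region far from the 5′ end was therefore seldom called in KO lists. Shared regions beyond 300 nt (49 regions), which both UT lists also hold, were called there in 73.5% of cases.

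A further readout of the WT preparation exists in the form of windowed coverage of demethylase-treated and immunoprecipitated libraries. Windows covered 0 of 727 UT-only regions in either WT replicate (upper Wilson bound 0.526%). They covered 76.3% and 76.7% of WT-only regions and 89.5% and 89.7% of shared regions in WT replicates 1 and 2. The choice of regions for windows is not described in the labels or headers, so their absence may follow from the WT peak lists themselves. The deposited score, treated minus immunoprecipitated coverage, had a median at the summit of 0.07 and 0.21 in WT-only regions and of 0.13 and 0.21 in shared regions, and was below 0 at 43.6% to 48.1% of summits.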

How the data were processed

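The submitters' processing notes list MACS2, HISAT and Trim Galore, beside the build hg19, without roles or versions. Per the file headers, each replicate has a peak list of its own on RefSeq transcripts. Coordinates were read as positions on transcripts, although 96 peaks on 4 transcripts lie beyond 110000 nt. Pileup, as deposited, is coverage (a signal) at the summit, in whole numbers and not visibly normalized. The deposited fold enrichment, −log10 p-value and −log10 q-value are the authors' own, used only within a list. Which control library MACS2 used is not given in the sources here. The windowed score and coverage signal were used as deposited.

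Peaks were merged in Python 3.11.15. A region took each list's highest peak, and its summit and length were means over the lists that call it. Symbols were taken from RefSeq's gene table (GRCh38.p14, names only): 11663 of 11855 transcripts matched. Log2 pileup, centred on the list median, and log2 length were fitted with limma 3.58.1 (eBayes with trend). The pileup fit alone was checked on simulated data. All simulated regions had the same spread, so the check does not cover regions of unequal spread.

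Named genes were, for each class, the 10 with the highest lowest within-list pileup percentile, 1 region a gene. For the fits they were those past the threshold (up to 8 each way), for genes with both kinds of region all 8, and for gene lists up to 4 a class. A few genes chosen this way are not reported here. The members, lists and limits were chosen with earlier results of these data known. Alternatives were other joining rules, thresholds, list lengths, scalings and left-out lists.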

Additional observations from a re-analysis of the deposited data

How the results depend on the processing

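With fold enrichment of 4 or more, 286 regions were UT-only and 148 shared, 133 genes had a peak in all 4 lists, 56.3% of UT-only and 88.3% of WT-only regions had a summit within 300 nt, 66.4% and 90.3% recurred in other conditions, and 85.2% of WT-only regions had windows. With lists of equal length, 98 regions were UT-only, 206 shared and 174 genes in all 4 lists, the shares within 300 nt were 52.0% (UT-only) and 83.1% (WT-only), and 84.7% of UT-only regions recurred. A −log10 q of 5 or more gave a recurrence of 60.8% for UT-only regions, and 1 transcript per gene gave 442 UT-only regions. Asking for both lists of another condition gave a recurrence of 21.3% (UT-only) and 55.1% (WT-only), and a limit of 100 nt gave 8.94%, 7.32% and 9.02% of UT-only, WT-only and shared regions. Joining peaks by summits and leaving out far transcripts moved none of these by more than 1.5 times (counts) or out of the interval (shares). A stricter threshold leaves fewer peaks, and the cause of these shifts was not tested.

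Leaving out each list in turn gave 771 to 7825 UT-only, 431 to 1551 WT-only and 438 to 732 shared regions and 519 to 806 genes in all lists, since fewer lists must then call a region. The shares within 300 nt were 22.6% to 55.7% (UT-only), 39.3% to 79.8% (WT-only) and 82.5% to 87.3% (shared). Recurrence was 26.7% to 68.9% (UT-only) and 44.7% to 88.0% (WT-only), and windows covered 14.3% to 78.3% of WT-only regions. UT-only stayed the class with the lowest share within 300 nt except without WT replicate 2.

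Relative pileup gave 0 to 7 calls without 1 list, 0 with quantile normalization, 0 on pileup as deposited, 0 with a fold enrichment of 4 or more and 1 without the regions of lowest pileup, against 4. At an unadjusted p under 0.05 limma gave 39 regions with quantile normalization, 17 on pileup as deposited, 14 with a fold enrichment of 4 or more and 42 without WT replicate 1, against 41. Peak length gave 0 to 1 calls without 1 list, 0 without the variance trend (51 at an unadjusted p under 0.05) and 3 with 1 region per gene, against 9. With the replicate number as a block, pileup gave 0 calls (59 at an unadjusted p under 0.05) and length 6. The replicate numbers share only a number in the labels: the difference between replicates correlated at r = 0.292 between the preparations over the 382 regions. Depth is unknown, so an uncalled region cannot be told from a weakly covered one.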

Other observations

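The regions called in 3 of the 4 lists were uneven. UT replicates 1 and 2 with WT replicate 2 called 333 regions, and with WT replicate 1 they called 45. Of these 333 regions, on 231 genes, 77.2% had a summit within 300 nt, against 87.7% of shared and 78.0% of WT-only regions, and 4.20% were called in none of the 6 other lists. Among regions of 1 list alone, 25.6% and 20.4% had a summit within 300 nt in UT replicates 1 and 2, against 26.9% and 63.6% in WT replicates 1 and 2. In none of the 6 other lists were 72.0% and 76.3% of those of UT replicates 1 and 2, against 68.1% and 31.5% of those of WT replicates 1 and 2. In both measures WT replicate 2 stood apart from the other 3 lists.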
